A study of Homo sapiens with 647 samples.

Results

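The 34 genes described here encode enzymes and regulators of cholesterol and fatty acid synthesis. They were listed by name, but with earlier results of these data known. All 34 were found among the 54592 genes of the deposited count table. By role, 7 act in the mevalonate steps, 11 between squalene and cholesterol, 5 in sterol sensing and transport and 11 in the supply and synthesis of fatty acids. The data were SMART-Seq2 RNA sequencing, a full-length cDNA method, of 647 libraries from T47D, a luminal, estrogen receptor positive human breast cancer line. The cells were parental T47D or had been infected with lentivirus carrying GFP, FGFR1, FGF3, or FGFR2 in its wild-type (WT), M538I, N550K or K660N form. Parental and GFP cells are called the control lines below, and the cells with any of the 4 forms of FGFR2 the FGFR2 lines. FGFR1 and FGFR2 are receptor tyrosine kinases for fibroblast growth factors, of which FGF2 and FGF3 are secreted members.

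Cells were plated for 48 h and then treated for 24 h. The agents were DMSO (the solvent), fulvestrant at 100 nM, palbociclib at 1 µM, FIIN-3 at 100 nM and trametinib at 500 nM, alone or together, with or without FGF2, whose dose the labels do not state. Fulvestrant blocks and degrades the estrogen receptor, palbociclib inhibits the cell cycle kinases CDK4 and CDK6, FIIN-3 is a covalent inhibitor of the FGF receptors, and trametinib inhibits the kinase MEK below them. The FGF3 line had no arm with added FGF2. In set 2 the label of its untreated arm was control, and DMSO was not named. Apart from the parental cells, each line was made by new lentiviral infection with the pLX307 plasmid, so that the receptors and FGF3 were delivered from outside the cells' own genes. The labels do not say how many infections or separate cultures stand behind the libraries of a group. All p-values therefore measure the spread between these libraries, which may be technical. Title numbers start again from 1 partway through the series; libraries before and after that restart are kept apart as set 1 and set 2.

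Cells make cholesterol from acetyl-CoA through mevalonate, isoprenoids, squalene and lanosterol, and fatty acids from the same acetyl-CoA through malonyl-CoA. The transcription factors SREBP2 (gene SREBF2) and SREBP1 (SREBF1) switch on most of these genes. When membrane sterol is low, the escort protein SCAP carries them out of the endoplasmic reticulum, where INSIG1 otherwise holds them. In hormone-dependent breast cancer cells the pathway supplies membranes for growth, and its later sterols and oxysterols also act as ligands of nuclear receptors such as LXR.

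The promoters below were chosen after the values were seen: those of genes that trametinib or FGF2 moved by much, and of genes that hold an SREBP-type element. They are RefSeq sequences on GRCh38.p14, given 5′ to 3′ on the gene's own strand and ending before the annotated start. Windows of 300 bases around the start, 250 before it and 50 from it on, were available for 30 of the 34 genes. Capitals mark CACNCCAC, a core shared by many sterol regulatory elements, and CCAAT, the letters bound by NF-Y, each on either strand.

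STARD4 (chr5:111512616-111512741, minus strand): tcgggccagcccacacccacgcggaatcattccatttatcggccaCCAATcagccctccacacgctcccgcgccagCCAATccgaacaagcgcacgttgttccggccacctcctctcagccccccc
MVD (chr16:88663127-88663295, minus strand): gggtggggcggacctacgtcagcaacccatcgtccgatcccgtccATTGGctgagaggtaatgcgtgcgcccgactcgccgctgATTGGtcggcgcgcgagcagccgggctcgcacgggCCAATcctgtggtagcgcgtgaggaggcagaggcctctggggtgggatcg
LSS (chr21:46228875-46228969, minus strand): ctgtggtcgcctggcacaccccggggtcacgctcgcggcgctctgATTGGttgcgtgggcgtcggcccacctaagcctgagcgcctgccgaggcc
TM7SF2 (chr11:65111753-65111847, plus strand): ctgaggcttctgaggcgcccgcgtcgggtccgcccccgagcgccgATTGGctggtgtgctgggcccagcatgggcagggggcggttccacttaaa
SC5D (chr11:121292739-121292836, plus strand): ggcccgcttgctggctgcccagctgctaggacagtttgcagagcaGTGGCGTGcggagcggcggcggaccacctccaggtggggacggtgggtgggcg
IDI1 (chr10:1048949-1049046, minus strand): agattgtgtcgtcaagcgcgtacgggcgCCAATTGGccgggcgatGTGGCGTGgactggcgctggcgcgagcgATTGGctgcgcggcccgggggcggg
INSIG1 (chr7:155297628-155297722, plus strand): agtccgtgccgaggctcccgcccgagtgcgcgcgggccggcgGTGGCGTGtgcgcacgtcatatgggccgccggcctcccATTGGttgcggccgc
SREBF2 (chr22:41832928-41833025, plus strand): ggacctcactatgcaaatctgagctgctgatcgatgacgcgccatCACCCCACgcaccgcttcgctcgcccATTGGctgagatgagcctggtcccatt

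CACNCCAC was present in the windows of 6 of the 30 genes (20%), namely IDI1, SC5D, INSIG1, SREBF2, ACACA and SCD, against 5.87% of all 35116 windows. The longer TCACNCCAC, which contains it, was found in 1 of the 30 (SREBF2) and in 1.13% of all windows. CCAAT was present in 23 (76.7%) and in 34.6% of all windows. The window of MVD, the mevalonate diphosphate decarboxylase, held several copies in the stretch printed, and that of STARD4, a sterol carrier, held more than 1. The E-box CACGTG was present in 5 of the 30 genes (16.7%) and in 7.26% of all windows, and the GC box GGGCGG in 28 (93.3%) and in 45%. These are matches of letters and not sites shown to be bound.

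Libraries of set 1 were read more deeply (median total count 7570052.5, range 512961 to 13012180) than those of set 2 (median 2887186, range 619509 to 4804935). The genes delivered by virus were high only in their own lines: over all arms, mean FGFR1 was between 8.47 and 10.46 log2 CPM in the FGFR1 line and no higher than 4.26 in any other line. FGFR2 was at 7.35 to 10.14 in its 4 lines and no higher than 4.54 elsewhere, and FGF3 was at 7.14 to 8.89 in its line and no higher than 0.04 elsewhere. The 8 luminal markers fixed for the check, among them KRT8, GATA3 and ESR1, had reads in all 647 libraries. Of 8 markers of fibroblasts, blood cells and endothelium, COL1A2, COL3A1, PTPRC and PECAM1 were at 0 in 585 to 604 libraries, VWF was at 0 in 463 and VIM in 36, and COL1A1 and CD74 had reads in every library. In 14 libraries of set 1 and 2 of set 2, MT-RNR2, a mitochondrial ribosomal RNA, took under 5% of the counts. All 14 of set 1 fell in the third range of 96 title numbers, and 8 of them were DMSO libraries. Not every arm of set 1 had libraries in each range, and the main fits carry no term for range. Another group stood apart by depth: 20 libraries of set 1 and 2 of set 2 had under 0.333 of the median total of their set, and 14 of the 20 were of the FGF3 line. Results that change without either group are given below with both values. A change in RNA per cell and a change in the mix of cells within a culture cannot be told apart in these libraries.

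In the sentences that follow, 3 values of an arm are its lowest, median and highest library; where an arm had 5 libraries or fewer, all are given in rising order. Arms apart means that every library of one arm lay above every library of the other. Values per library are log2 CPM (reads scaled to a common library size, TMM within a set, prior count 2). Differences are log2 fold changes ± their standard error from edgeR's quasi-likelihood test on the counts, fitted over all genes, and a gene is said to rise or fall where its Benjamini-Hochberg adjusted p is under 0.05. ME1, a malic enzyme that makes NADPH, had reads in only 70 of the 647 libraries (at most 8 in a library) and was not tested in any comparison. The other 33 genes passed the filter in most comparisons. Overlaps of called genes between comparisons are counted among these genes only, and the matching overlap over all genes is not given. Over the 46 comparisons made, TM7SF2, a sterol reductase after lanosterol, passed the test most often (17 times higher, 12 lower), followed by ACAT2, the acetoacetyl-CoA thiolase that opens the mevalonate route (6 higher, 15 lower).

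**Figure D1:**
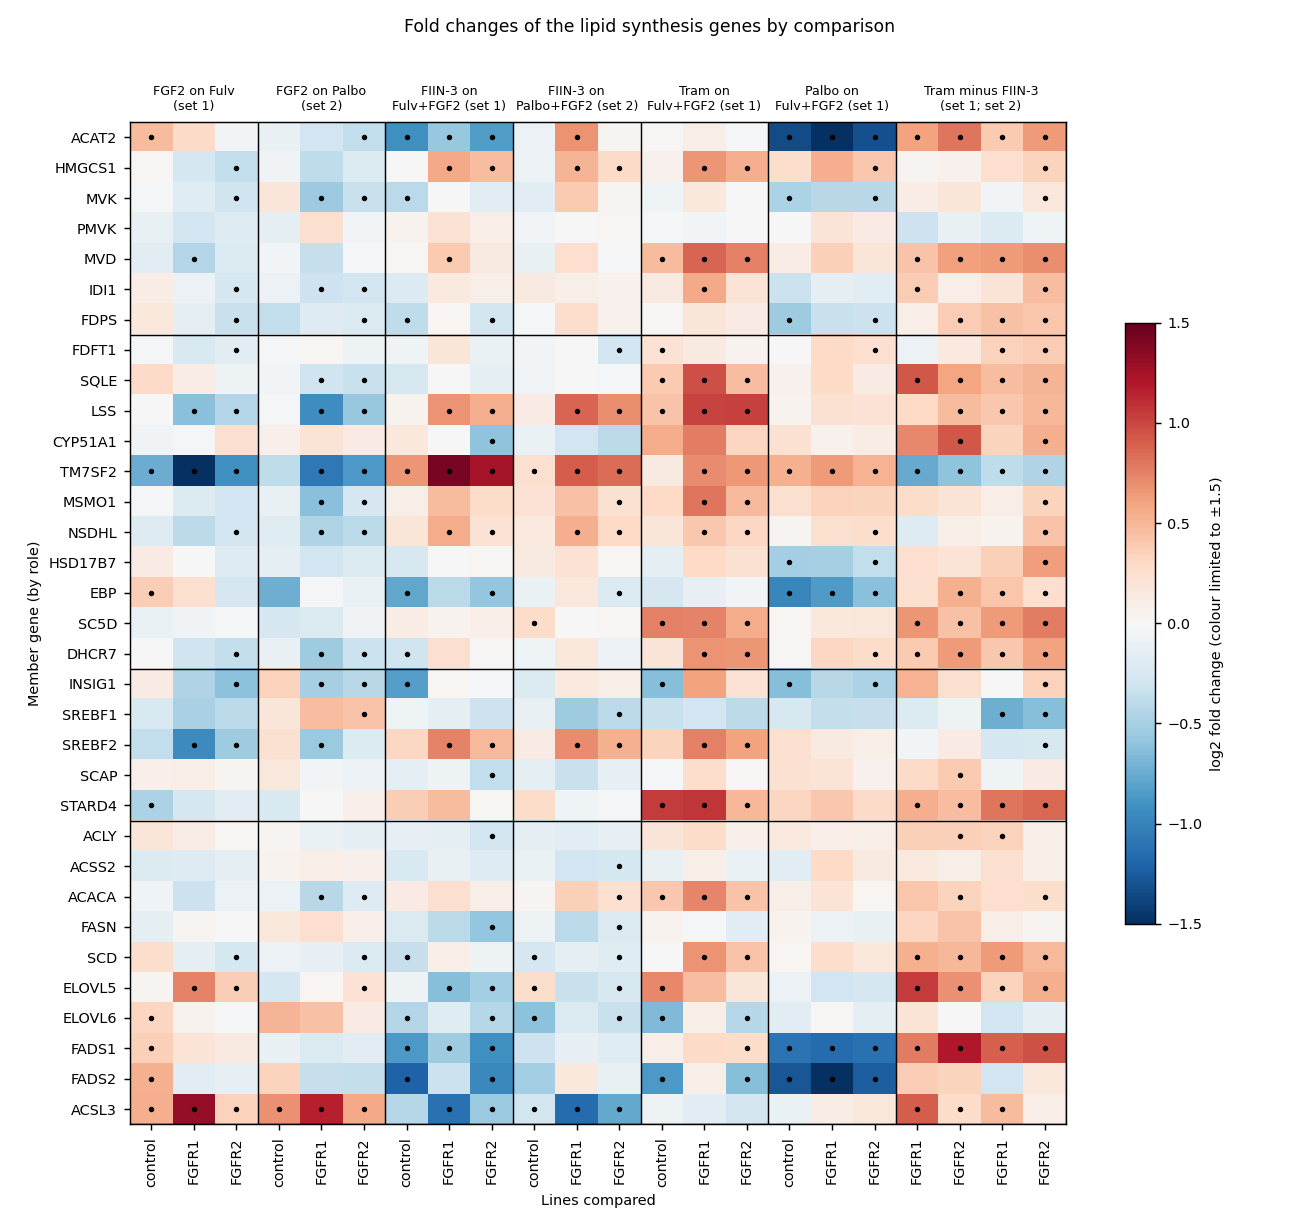
Log2 fold change of the 33 tested genes (rows, in the order mevalonate steps, squalene to cholesterol, sterol sensing and transport, fatty acids) in 22 comparisons (columns, grouped by the agent added and by line class). Red is higher and blue lower with the agent, colour stops at ±1.5, and a dot marks an adjusted p under 0.05. TM7SF2 is blue under FGF2 and red under FIIN-3, the trametinib columns are mainly red in the sterol rows, and ACAT2, EBP, FADS1 and FADS2 are blue under palbociclib.

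Trametinib, added to fulvestrant plus FGF2, raised much of the sterol pathway in the receptor lines. In the FGFR1 line 14 of 33 genes rose and 0 fell, where 5.48% of all genes tested rose and 5.83% fell. The median of the 33 was 0.41 and that of all genes 0.0071. In the FGFR2 lines 14 rose and 2 fell (14% and 14.1% of all genes), and 13 of those 14 were among the 14 of the FGFR1 line (92.9% of each list). In the control lines 8 rose and 3 fell (11.6% and 15.7%). The 3 comparisons use different libraries. Whether the line classes differ in their response to trametinib was not tested.

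In the mevalonate steps, MVD rose in all 3 classes of line. Within the FGFR1 line its lowest, median and highest library values were 6.36, 6.63 and 6.76 log2 CPM with fulvestrant plus FGF2 and 7.27, 7.52 and 7.56 with trametinib as well. Every library with trametinib was above every library without it, and the log2 fold change was 0.88 ± 0.09 (adjusted p = 1.3e-06, arms apart). It was 0.75 ± 0.07 (adjusted p = 1.9e-12) in the FGFR2 lines and 0.47 ± 0.07 (adjusted p = 8.0e-06) in the control lines, and in 6 of 7 lines the libraries with and without trametinib did not overlap. HMGCS1, the synthase that makes HMG-CoA, went from 3.86, 4.14 and 4.24 to 4.31, 4.88 and 4.94 in the FGFR1 line (0.67 ± 0.14, adjusted p = 0.003, arms apart). It rose by 0.55 in the FGFR2 lines. IDI1, the isopentenyl diphosphate isomerase, went from 6.94, 7.49 and 7.67 to 7.75, 7.95 and 8.23 in the FGFR1 line (0.57 ± 0.12, adjusted p = 0.0045, arms apart) and did not pass the test in the other classes (0.21 and 0.14). ACAT2, MVK, PMVK and FDPS passed in none of the 3.

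Between squalene and cholesterol, 7 of 11 genes rose in the FGFR1 line, 7 in the FGFR2 lines and 4 in the control lines, and none fell in any of the 3. LSS, which closes squalene epoxide to lanosterol, was at 5.25, 5.60 and 5.97 without and 6.47, 6.67 and 6.82 with trametinib in the FGFR1 line. Its log2 fold change was 1.02 ± 0.13 (adjusted p = 2.7e-05, arms apart), against 1.02 ± 0.11 (adjusted p = 9.1e-11, arms overlapping) in the FGFR2 lines and 0.42 ± 0.08 (adjusted p = 2.5e-04) in the control lines. In the 24 libraries per arm of the FGFR2 lines the values overlapped (5.02, 5.62 and 6.08 without, 4.29, 6.72 and 7.09 with). SQLE, the epoxidase before it, went from 4.92, 6.11 and 6.44 to 6.46, 6.97 and 7.29 in the FGFR1 line (0.97 ± 0.20, adjusted p = 0.0032, arms apart) and rose by 0.46 and 0.39 in the FGFR2 and control lines. TM7SF2 rose by 0.71 and 0.65 in the FGFR1 and FGFR2 lines but did not pass in the controls (0.13 ± 0.10). DHCR7, the last reductase of the route, rose in the same 2 classes (0.67, 0.66 and 0.19). SC5D, a sterol desaturase, rose in all 3 classes (0.75, 0.55 and 0.75).

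Of the genes of sterol sensing and transport, STARD4 had the largest fold change in the FGFR1 and control lines. It was at 2.75, 3.09 and 3.42 without and 3.83, 4.10 and 4.52 with trametinib in the FGFR1 line, with no overlap, and rose by 1.07 ± 0.17 (adjusted p = 2.7e-04, arms apart). Across the control lines it went from 2.08, 3.02 and 3.72 to 3.65, 4.21 and 4.39 (1.05 ± 0.14, adjusted p = 4.0e-07, arms overlapping), and in the FGFR2 lines it rose by 0.50 ± 0.13 (adjusted p = 0.0015). SREBF2 went from 3.98, 4.40 and 5.03 to 4.89, 5.27 and 5.37 in the FGFR1 line (0.75 ± 0.17, adjusted p = 0.0066, arms overlapping) and rose by 0.61 in the FGFR2 lines. SREBF1 passed in none of the 3 and was lower on average in all 7 lines. INSIG1 fell in the control lines, from 3.15, 4.70 and 5.61 to 3.26, 4.15 and 4.79 (-0.63 ± 0.17, adjusted p = 0.0043, arms overlapping), and did not pass in the FGFR1 (0.60 ± 0.20) or FGFR2 lines (0.22 ± 0.15).

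The fatty acid genes were divided. ACACA, which makes malonyl-CoA, rose in all 3 classes (0.73, 0.43 and 0.41 in the FGFR1, FGFR2 and control lines). SCD, the stearoyl-CoA desaturase, was at 7.45, 7.79 and 8.17 without and 8.25, 8.57 and 8.76 with trametinib in the FGFR1 line (0.68 ± 0.13, adjusted p = 0.0016, arms apart), and rose by 0.43 in the FGFR2 lines. FASN, the fatty acid synthase itself, passed in none (-0.03, -0.16 and 0.05). FADS2, the desaturase that starts polyunsaturated synthesis, fell in the control lines from 3.39, 3.80 and 4.42 to 2.61, 3.08 and 3.40 (-0.87 ± 0.14, adjusted p = 1.2e-05, arms overlapping). It fell by 0.64 on the log2 scale in the FGFR2 lines. ELOVL6, an elongase of saturated chains, fell in the same 2 classes (-0.66 and -0.42). ELOVL5, an elongase of polyunsaturated chains, rose in the control lines (0.72 ± 0.13). With a term for the range of title numbers (ranges of 96 consecutive numbers, which may follow the 96-well plates that the labels mention), HMGCS1 and MSMO1 in the FGFR1 line, MSMO1 in the FGFR2 lines and SC5D and INSIG1 in the control lines no longer passed (adjusted p = 0.059, 0.085, 0.07, 0.1 and 0.059).

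**Figure D2:**
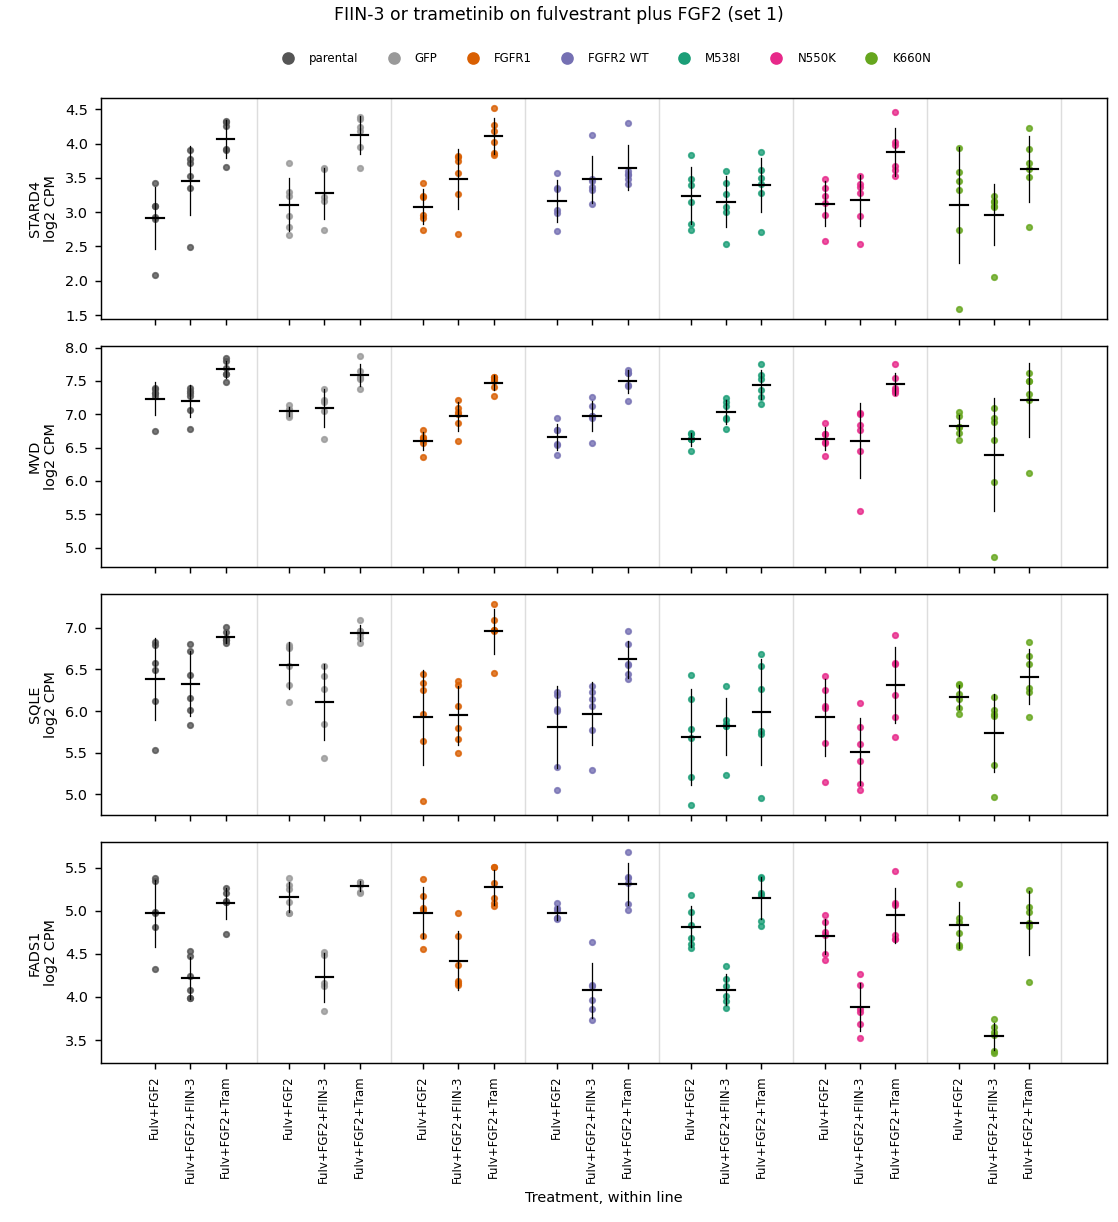
Log2 CPM (vertical axes) of STARD4, MVD, SQLE and FADS1 in each library of 7 lines (colours) with fulvestrant plus FGF2 alone, with FIIN-3 and with trametinib (horizontal axis, set 1). Bars are means ± SD. MVD with trametinib lies above MVD without it in every line on average, and FADS1 is low with FIIN-3 and not with trametinib.

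Trametinib and FIIN-3 were both given on fulvestrant plus FGF2, and these arms could be compared directly. With trametinib 11 of 33 genes were higher and 1 lower than with FIIN-3 in the FGFR1 line (13.6% and 16.4% of all genes). Across the FGFR2 lines the counts were 17 and 1 (26.1% and 24.3%). Set 2 held the same contrast on fulvestrant, palbociclib and FGF2: 15 higher and 2 lower in the FGFR1 line (12.6% and 12.5%), and 22 and 3 in the FGFR2 lines (27.3% and 27.4%). The medians of the 33 genes were 0.32, 0.33, 0.33 and 0.34, and those of all genes between -0.033 and 0.0015. The sets share no library. Of the 17 higher genes of set 1 in the FGFR2 lines, 14 were also higher in set 2, which is 82.4% of the set 1 list and 63.6% of the set 2 list, and none was lower there. For the FGFR1 line 10 were shared (90.9% and 66.7%). The matching overlaps over all genes are not given.

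FADS1, the desaturase that follows FADS2, had the largest difference in 3 of these 4 contrasts. Among the FGFR2 lines of set 1 it was at 3.35, 3.86 and 4.64 with FIIN-3 and 4.17, 5.07 and 5.68 with trametinib (1.198 ± 0.08, adjusted p = 1.3e-17, arms overlapping), and within each of the 7 lines the arms did not overlap. In set 2 it was at 2.49, 3.76 and 4.22 and 3.92, 4.66 and 5.22 (0.95 ± 0.11, adjusted p = 2.1e-11, arms overlapping). For the FGFR1 line the differences were 0.79 ± 0.17 in set 1 and 0.90 ± 0.21 in set 2. In the FGFR1 line of set 1, ELOVL5 differed most, at 5.74, 6.03 and 6.85 with FIIN-3 and 7.15, 7.29 and 7.65 with trametinib (1.05 ± 0.17, adjusted p = 9.8e-05, arms apart), and was also higher in the FGFR2 lines of both sets (0.68 and 0.55). ACAT2 was higher with trametinib in all 4 contrasts, by 0.60 to 0.80 in set 1 and by 0.39 and 0.63 in set 2.

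Genes of the sterol steps were higher with trametinib as well. SC5D was at 7.73, 8.12 and 8.36 with FIIN-3 and 8.44, 8.82 and 9.39 with trametinib in the FGFR2 lines of set 2, the only one of the 25 genes called there whose 2 arms were apart over all libraries (0.77 ± 0.05, adjusted p = 1.2e-18, arms apart). SQLE was at 5.49, 5.93 and 6.36 and 6.46, 6.97 and 7.29 in the FGFR1 line of set 1 (0.93 ± 0.16, adjusted p = 1.2e-04, arms apart) and was higher in the other 3 contrasts (0.60, 0.46 and 0.51). STARD4 was at 3.35, 3.54 and 3.76 and 4.09, 4.32 and 4.49 in the FGFR1 line of set 2 (0.81 ± 0.19, adjusted p = 0.0022, arms apart), and at 1.52, 3.53 and 3.99 and 3.47, 4.33 and 5.02 in its FGFR2 lines (0.86 ± 0.13, adjusted p = 3.8e-08, arms overlapping). MVD, DHCR7 and SCD were higher in all 4. CYP51A1, the lanosterol demethylase, is read at a low level: in the FGFR2 lines of set 1 it was at -1.86, 1.02 and 2.37 and -1.86, 1.80 and 2.96 (0.93 ± 0.23, adjusted p = 6.6e-04, arms overlapping).

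TM7SF2 went the other way in all 4 contrasts. Within the FGFR1 line of set 1 it was at 8.91, 9.33 and 9.66 with FIIN-3 and 8.51, 8.63 and 8.76 with trametinib (-0.76 ± 0.12, adjusted p = 8.8e-05, arms apart). In the FGFR2 lines it was lower as well (-0.60 ± 0.11, adjusted p = 4.6e-06), and in set 2 the differences were -0.38 ± 0.08 and -0.45 ± 0.05. SREBF1 passed the test in set 2, going from 4.91, 5.53 and 5.64 with FIIN-3 to 4.32, 4.52 and 5.27 with trametinib in the FGFR1 line (-0.73 ± 0.17, adjusted p = 0.002, arms overlapping) and from 4.08, 5.59 and 6.23 to 3.44, 4.77 and 5.92 in the FGFR2 lines (-0.64 ± 0.13, adjusted p = 2.4e-05, arms overlapping). In set 1 its differences were -0.21 ± 0.24 and -0.08 ± 0.15 and did not pass. SREBF2 was lower by a smaller amount in the FGFR2 lines of set 2 (-0.24 ± 0.09, adjusted p = 0.019). ACLY, ACSL3, ACACA and SCAP in the FGFR2 lines of set 1 did not pass with the term for the range of title numbers (adjusted p from 0.061 to 0.3), nor did MVD in the FGFR1 line of set 1 (0.072).

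In the FGF3 line, which makes its own ligand, trametinib was added to fulvestrant alone. There 4 genes rose and 1 fell (2.99% and 4.44% of all genes). STARD4 was at 0.65, 0.93, 1.10 and 1.53 in the 4 libraries with fulvestrant and at 2.26, 2.87 and 3.20 over 6 with trametinib (1.80 ± 0.34, adjusted p = 0.0017, arms apart). SREBF2 (0.87 ± 0.23), LSS (0.48 ± 0.14) and FDFT1, the squalene synthase (0.37 ± 0.11), also rose, and EBP, a sterol isomerase, fell (-0.46 ± 0.13). SREBF2 was at 4.73, 4.79, 5.24 and 5.47 with fulvestrant and 5.37, 5.89 and 6.53 with trametinib, LSS at 6.42, 6.55, 6.65 and 6.89 and 6.77, 7.21 and 7.31, and EBP at 7.94, 7.98, 8.26 and 8.32 and 7.38, 7.69 and 7.94. Only STARD4 passed in the fit without the shallow library of the fulvestrant arm (replicate 2), and also without replicate 1 or 2 of the trametinib arm, so that the count went from 5 to 1. The count was 2 without fulvestrant replicate 3 or trametinib replicate 6, 3 without fulvestrant replicate 1 or 4 or trametinib replicate 4, and 9 with the term for title numbers.

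FGF2 lowered several of the sterol genes that trametinib raised, and raised ACSL3, a long-chain acyl-CoA synthetase of lipid droplets. These contrasts were made on fulvestrant in set 1 and on palbociclib in set 2. In set 1 the arm with fulvestrant plus FGF2 is also the one that trametinib was compared with. Its spread moves the 2 results in opposite directions, so they are not independent. The contrasts on palbociclib in set 2 share no library with those of trametinib. On fulvestrant 2 genes rose and 4 fell in the FGFR1 line (12.7% and 14% of all genes), 2 rose and 12 fell in the FGFR2 lines (16.4% and 19.7%), and 6 rose and 2 fell in the control lines (6.81% and 4.82%). On palbociclib the counts were 1 and 11 in the FGFR1 line (12.9% and 11.9%), 3 and 13 in the FGFR2 lines (17.9% and 20.1%) and 1 and 0 in the control lines (0.753% and 0.329%). Of the 12 genes that fell in the FGFR2 lines on fulvestrant, 9 also fell on palbociclib (75% and 69.2% of the lists). They were MVK, IDI1, FDPS, LSS, TM7SF2, NSDHL, DHCR7, INSIG1 and SCD. ELOVL5 and ACSL3 rose in both.

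TM7SF2 fell the most. For the FGFR1 line it was at 9.09, 9.51 and 9.73 with fulvestrant and 7.43, 7.97 and 8.17 with FGF2 added (-1.57 ± 0.14, adjusted p = 6.6e-07, arms apart). Among the control lines it went from 9.31, 9.39 and 9.69 to 8.27, 8.63 and 9.27 (-0.75 ± 0.09, adjusted p = 4.1e-07, arms apart); in neither class did the arms overlap. Across the FGFR2 lines it went from 7.65, 8.70 and 9.41 to 7.22, 7.78 and 8.13 (-0.92 ± 0.08, adjusted p = 2.7e-12, arms overlapping). On palbociclib it went from 9.25, 9.34 and 9.64 to 8.10, 8.34 and 8.42 in the FGFR1 line (-1.07 ± 0.08, adjusted p = 1.4e-09, arms apart) and from 8.54, 9.10 and 9.96 to 7.78, 8.20 and 8.96 in the FGFR2 lines (-0.86 ± 0.07, adjusted p = 1.4e-14, arms overlapping). The control lines on palbociclib did not pass (-0.38 ± 0.11). Their palbociclib arm held a parental library with MT-RNR2 under 5%, and without it 2 genes rose and 4 fell in place of 1 and 0.

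LSS was at 5.90, 6.26 and 6.63 with fulvestrant and 5.25, 5.60 and 5.97 with FGF2 as well in the FGFR1 line (-0.62 ± 0.16, adjusted p = 0.0091, arms overlapping). On palbociclib the fall was -0.93 ± 0.10 (adjusted p = 2.0e-07, arms apart), from 6.98, 7.13 and 7.37 to 6.03, 6.21 and 6.40. Among the FGFR2 lines it fell by 0.44 and 0.56 on the log2 scale in set 1 and set 2. On palbociclib mean LSS went from 7.18 to 6.25 in WT and from 6.95 to 6.12 in M538I. The fall was smaller in N550K (6.75 to 6.55) and K660N (6.91 to 6.64), and differences between the forms were not tested. In the control lines LSS did not pass in either set (-0.00 ± 0.11 and -0.02 ± 0.15). MSMO1, a sterol methyl oxidase, fell without overlap in the FGFR1 line on palbociclib, from 6.74, 6.84 and 7.05 to 6.00, 6.21 and 6.43 (-0.62 ± 0.10, adjusted p = 7.1e-05, arms apart), as did DHCR7 (-0.53 ± 0.10). SREBF2 was at 4.29, 5.24 and 6.34 with fulvestrant and 3.98, 4.40 and 5.03 with FGF2 in the FGFR1 line (-0.96 ± 0.29, adjusted p = 0.02, arms overlapping), and fell by 0.54 in the FGFR2 lines, from 3.82, 5.21 and 5.97 to 3.38, 4.55 and 5.39. INSIG1 fell in the FGFR2 lines from 3.53, 5.15 and 5.69 to 3.53, 4.20 and 5.28 on fulvestrant (-0.61 ± 0.15, adjusted p = 9.6e-04, arms overlapping) and from 4.71, 5.50 and 6.11 to 4.13, 5.10 and 5.99 on palbociclib (-0.41 ± 0.10, adjusted p = 7.3e-04, arms overlapping).

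ACSL3 was at 5.84, 6.27 and 6.60 with palbociclib and 7.24, 7.45 and 7.63 with FGF2 as well in the FGFR1 line (1.17 ± 0.11, adjusted p = 5.2e-08, arms apart). It rose from 4.68, 5.001 and 5.63 to 5.27, 6.52 and 6.91 on fulvestrant in that line (1.32 ± 0.24, adjusted p = 6.4e-04, arms overlapping), and from 4.96, 6.79 and 7.57 to 6.48, 7.43 and 7.69 in the FGFR2 lines on palbociclib (0.56 ± 0.09, adjusted p = 9.8e-07, arms overlapping). Across the control lines it rose by 0.55 on fulvestrant and 0.69 on palbociclib. The FGFR2 forms were not alike before FGF2 was added. With palbociclib alone, mean ACSL3 was 6.499 ± 0.10 (SD, n = 6) in the WT line, 6.46 ± 0.75 in M538I, 7.15 ± 0.37 in N550K and 7.05 ± 0.19 in K660N. With FGF2 the means were 7.28 ± 0.09, 7.46 ± 0.06, 7.62 ± 0.07 and 7.23 ± 0.41. The WT, M538I and N550K libraries with FGF2 thus lay close together, and K660N was spread more widely; the differences between the forms were not tested. ELOVL5 rose by 0.75 in the FGFR1 line and 0.37 in the FGFR2 lines on fulvestrant. It was at 5.69, 6.16 and 6.32 and 6.15, 6.91 and 7.33 in the FGFR1 line.

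Among the control lines on fulvestrant, FGF2 raised FADS2, from 2.92, 3.41 and 3.64 to 3.39, 3.80 and 4.42 (0.54 ± 0.14, adjusted p = 0.0074, arms overlapping), ACAT2, from 6.13, 6.45 and 7.15 to 6.63, 7.02 and 7.68 (0.48 ± 0.11, adjusted p = 0.0023, arms overlapping), and FADS1, ELOVL6 and EBP (0.36, 0.32 and 0.37). ACSL3, ELOVL6 and FADS1 lost their calls with the term for title numbers (adjusted p = 0.12, 0.14 and 0.065), EBP with DESeq2's size factors (0.057) and STARD4 without the filter on low counts (0.063). STARD4 fell there from 3.14, 3.498 and 3.94 to 2.08, 3.02 and 3.72 (-0.48 ± 0.14, adjusted p = 0.025, arms overlapping). With a term for the range of title numbers, 10 genes passed in the FGFR1 line on fulvestrant in place of 6, and 9 in the FGFR2 lines in place of 14, all 9 lower. ACSL3 and ELOVL5 were then no longer called in the FGFR2 lines (0.16, adjusted p = 0.4, and 0.24, adjusted p = 0.065), and FDPS turned to 0.05. The counts on palbociclib in set 2 moved by less than 1.5 times with this term.

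**Figure D3:**
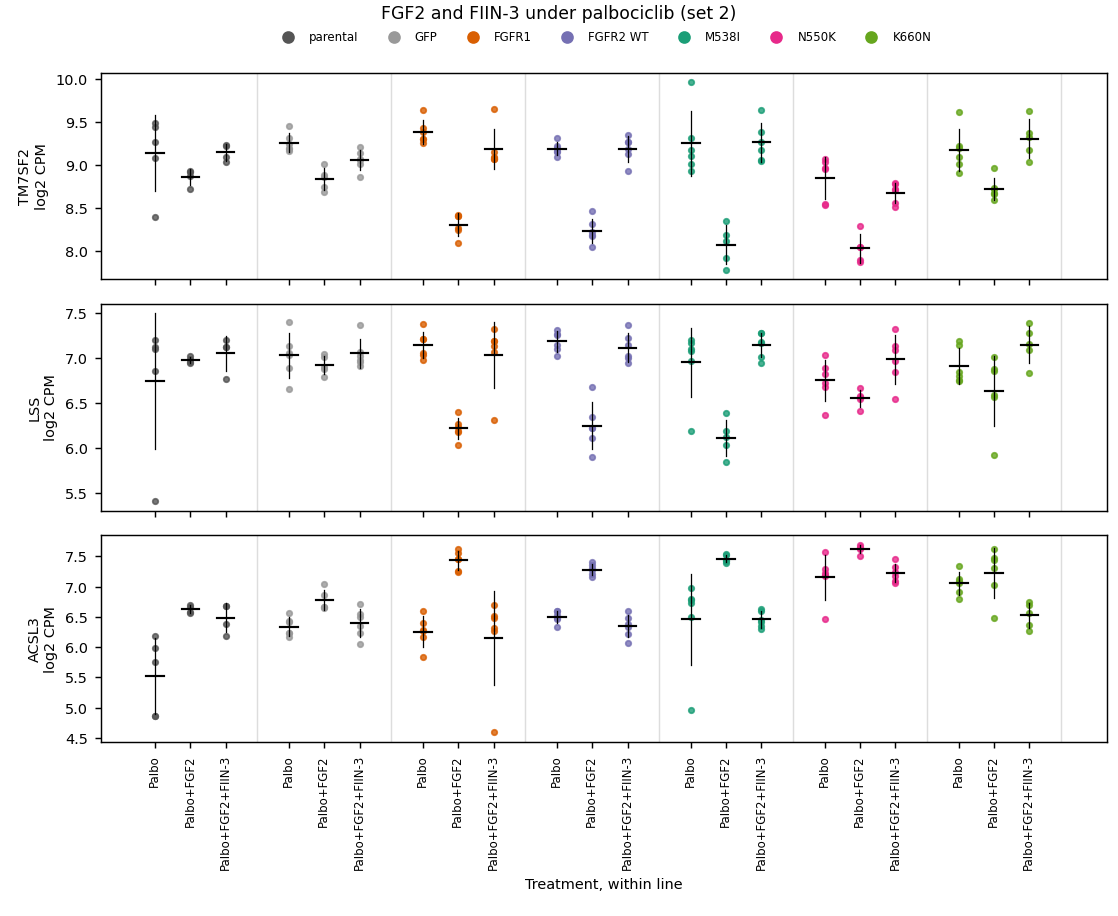
Log2 CPM (vertical axes) of TM7SF2, LSS and ACSL3 in each library of 7 lines (colours) with palbociclib, with FGF2 added and with FGF2 and FIIN-3 added (horizontal axis, set 2). Bars are means ± SD. In the FGFR1, WT and M538I lines TM7SF2 and LSS are low and ACSL3 is high with FGF2, and all 3 return towards the palbociclib values with FIIN-3.

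Without fulvestrant or palbociclib, FGF2 was compared with DMSO. In the control lines 1 gene rose and 1 fell (3.6% and 2.36% of all genes). INSIG1 went from 3.21, 3.89 and 4.94 to 3.95, 4.59 and 5.08 (0.53 ± 0.16, adjusted p = 0.045, arms overlapping) and TM7SF2 from 7.71, 9.32 and 9.77 to 8.13, 8.49 and 8.82 (-0.78 ± 0.15, adjusted p = 8.5e-04, arms overlapping). In the FGFR1 line 4 rose and 6 fell (14.4% and 17.3%). TM7SF2 was at 8.11, 9.15, 9.25, 9.45 and 9.65 in the 5 DMSO libraries and at 7.53, 7.75 and 7.88 in the 6 with FGF2 (-1.52 ± 0.24, adjusted p = 7.7e-04, arms apart), and ACSL3 at 4.31, 4.32, 5.02, 5.17 and 5.53 and 5.78, 6.43 and 7.001 (1.505 ± 0.28, adjusted p = 0.0022, arms apart); neither pair of arms overlapped. ELOVL5 rose there (0.87 ± 0.22) from 5.68, 5.92, 6.16, 6.30 and 6.56 to 6.58, 7.16 and 7.34. FDPS fell from 6.41, 6.61, 6.89, 7.25 and 7.94 to 6.00, 6.21 and 6.73 (-0.93 ± 0.27, adjusted p = 0.021, arms overlapping), and HSD17B7 from 2.81, 3.08, 3.96, 4.01 and 4.13 to 2.40, 2.96 and 3.45 (-0.78 ± 0.27, adjusted p = 0.037, arms overlapping). SCAP rose by 0.67, from 4.69, 5.15, 5.19, 5.47 and 5.70 to 5.35, 6.08 and 6.26. The count of 10 ranged from 5 to 14 as single libraries were left out (5 without FGF2 replicate 1, and 6 without DMSO replicate 4, FGF2 replicate 2 or FGF2 replicate 6). It was 18 with the term for title numbers.

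In the FGFR2 lines 2 rose and 11 fell after FGF2 against DMSO (20.7% and 25.5%), but much of this rested on the libraries with little MT-RNR2. TM7SF2 fell from 7.04, 8.58 and 9.55 to 7.43, 7.70 and 8.26 (-0.84 ± 0.11, adjusted p = 1.7e-07, arms overlapping). ELOVL5 rose from 4.82, 6.17 and 6.67 to 5.86, 6.53 and 7.04 (0.53 ± 0.12, adjusted p = 3.8e-04, arms overlapping). EBP fell from 7.42, 8.04 and 10.29 to 7.47, 7.83 and 8.33 (-0.81 ± 0.21, adjusted p = 0.0018, arms overlapping) but was at -0.01 without the libraries under 5% MT-RNR2 (adjusted p = 0.93). FDPS fell from 5.87, 6.60 and 8.46 to 6.02, 6.39 and 7.08 (-0.71 ± 0.17, adjusted p = 5.8e-04, arms overlapping) and had an adjusted p of 0.2 without them. ACAT2, PMVK and SCD lost their calls likewise, while TM7SF2, LSS, HMGCS1, HSD17B7, INSIG1, NSDHL and ELOVL5 passed in that fit too, HMGCS1 at -0.37 and LSS at -0.60. ACLY, which supplies acetyl-CoA from citrate, rose from 6.75, 7.80 and 8.69 to 7.02, 8.18 and 8.87 (0.36 ± 0.15, adjusted p = 0.045, arms overlapping) and lost its call as well. In limma on the second deposited table LSS was at 0.062 and NSDHL at 0.041, so that the direction of both turned there. The difference in FGF2 response between the FGFR1 line and the control lines passed for 0 genes in edgeR (1.26% and 1.98% of all genes higher and lower), with 8 at an unadjusted p under 0.05 and 2 in DESeq2. For TM7SF2 this difference was -0.71 ± 0.27 (adjusted p = 0.14) and for ACSL3 1.01 ± 0.35 (adjusted p = 0.1). The count was 9 with the term for title numbers. Between the FGFR2 and the control lines 1 gene differed, INSIG1 (-0.92 ± 0.27, adjusted p = 0.049; 0.886% and 0.988% of all genes). Its response was 0.53 ± 0.16 in the control lines and -0.39 ± 0.17 in the FGFR2 lines.

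FIIN-3 was added to FGF2 in 3 settings. In the FGFR1 and FGFR2 lines TM7SF2 and LSS rose and ACSL3 fell in all 3, and ELOVL5 fell in all but the FGFR1 line on palbociclib. In set 1 ACAT2, FADS1 and FADS2 fell in the control and FGFR2 lines. The contrasts with FGF2 above and with FIIN-3 here share their FGF2 libraries, so the 2 are given side by side and not compared. Against FGF2 alone, 9 genes rose and 2 fell in the FGFR1 line (16.2% and 15.2% of all genes), 9 and 9 in the FGFR2 lines (29% and 26.5%) and 4 and 5 in the control lines (11.9% and 12.4%). Against fulvestrant plus FGF2 the counts were 6 and 4 (14.7% and 15.1%), 5 and 12 (28.6% and 29.3%), and 1 and 10 (10.7% and 13.6%) in the same order. Against palbociclib plus FGF2 in set 2 they were 6 and 1 (8.84% and 7.5%), 7 and 9 (27.3% and 26.8%), and 3 and 3 (4.31% and 4.9%). In the FGFR2 lines the share of the 33 genes that rose was below that of all genes in each setting. The share that fell was near that of all genes or above it. Across the FGFR2 lines 5 genes rose in all 3 settings (HMGCS1, LSS, TM7SF2, NSDHL and SREBF2) and 5 fell in all 3 (EBP, FASN, ELOVL5, ELOVL6 and ACSL3). These 3 contrasts share no library, and the matching numbers over all genes are not given. With the term for title numbers NSDHL lost its call in both settings of set 1, FASN in both, and ELOVL6 and ACSL3 without fulvestrant (adjusted p = 0.18 and 0.44).

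Among the FGFR2 lines TM7SF2 was at 7.43, 7.70 and 8.26 with FGF2 and 8.34, 9.17 and 9.85 with FIIN-3 as well, with no overlap between the arms (1.40 ± 0.09, adjusted p = 5.8e-19, arms apart). The rise was 1.24 ± 0.10 (adjusted p = 3.6e-16) on fulvestrant and 0.84 ± 0.06 (adjusted p = 1.6e-19) on palbociclib. Within the FGFR1 line it was 1.53 ± 0.12, 1.42 ± 0.15 and 0.91 ± 0.14 in the 3 settings. Across the control lines, which carry no added receptor, it also rose, by 0.83 ± 0.09, 0.67 ± 0.10 and 0.25 ± 0.06. LSS was at 5.25, 5.86 and 6.46 and 6.31, 6.82 and 7.16 in the FGFR2 lines (0.90 ± 0.08, adjusted p = 1.5e-13, arms overlapping), and rose by 0.54 on fulvestrant and 0.69 on palbociclib. On fulvestrant the forms were unlike. Mean LSS went from 5.59 to 6.36 in WT and from 5.45 to 6.44 in M538I. It went from 5.64 to 5.93 in N550K and from 5.91 to 5.84 in K660N (6.14 without a library under 5% MT-RNR2). For the FGFR1 line its values were 5.25, 5.60 and 5.97 with fulvestrant plus FGF2 and 6.05, 6.29 and 6.57 with FIIN-3 (0.67 ± 0.16, adjusted p = 0.0037, arms apart). Among the control lines LSS did not pass in any of the 3 settings (0.20, 0.06 and 0.12).

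HMGCS1 rose in the FGFR2 lines by 0.50, 0.47 and 0.29 in the 3 settings, and was at 3.30, 4.10 and 4.70 with fulvestrant plus FGF2 and 4.11, 4.55 and 5.36 with FIIN-3. SREBF2 was at 3.38, 4.55 and 5.39 and 4.02, 5.19 and 6.14 in the same arms (0.48 ± 0.15, adjusted p = 0.0053, arms overlapping), and rose by 0.74 in the FGFR1 line. MSMO1 went from 4.04, 4.93 and 5.59 with FGF2 to 4.11, 5.51 and 6.34 with FIIN-3 in the FGFR2 lines (0.62 ± 0.12, adjusted p = 1.4e-05, arms overlapping). HSD17B7, which acts with NSDHL in removing sterol methyl groups, rose in the FGFR1 line from 2.40, 2.96 and 3.45 to 3.25, 3.64 and 4.35 (0.79 ± 0.22, adjusted p = 0.011, arms overlapping; adjusted p = 0.071 with the term for title numbers).

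ACSL3 in the FGFR1 line was at 5.78, 6.43 and 7.001 with FGF2 and 3.997, 5.33 and 5.79 with FIIN-3 (-1.18 ± 0.27, adjusted p = 0.0034, arms overlapping). It was at 5.27, 6.52 and 6.91 and 4.77, 5.03 and 6.02 on fulvestrant (-1.12 ± 0.27, adjusted p = 0.0039, arms overlapping) and at 7.24, 7.45 and 7.63 and 4.59, 6.40 and 6.70 on palbociclib (-1.15 ± 0.23, adjusted p = 0.0016, arms apart). In the FGFR2 lines on palbociclib it went from 6.48, 7.43 and 7.69 to 6.07, 6.56 and 7.46 (-0.77 ± 0.06, adjusted p = 2.8e-16, arms overlapping). ELOVL5 in the FGFR1 line was at 6.58, 7.16 and 7.34 and 5.46, 6.29 and 6.72 (-0.81 ± 0.21, adjusted p = 0.0076, arms overlapping), and at 6.15, 6.91 and 7.33 and 5.74, 6.03 and 6.85 on fulvestrant (-0.63 ± 0.22, adjusted p = 0.036, arms overlapping; adjusted p = 0.12 with the term for title numbers). Across the FGFR2 lines on palbociclib SREBF1 fell from 4.05, 5.32 and 5.90 to 3.51, 4.81 and 5.83 (-0.41 ± 0.13, adjusted p = 0.0058, arms overlapping) and ELOVL6 from 4.05, 4.82 and 5.40 to 3.44, 4.47 and 5.08 (-0.34 ± 0.10, adjusted p = 0.0023, arms overlapping). ELOVL6 fell in the control lines too (-0.61 ± 0.15), from 4.22, 4.73 and 5.18 to 3.67, 4.14 and 4.56. FASN fell in the FGFR2 lines in all 3 settings (-0.47, -0.59 and -0.22), but with the term for title numbers it was at 0.10 (adjusted p = 0.54) without fulvestrant and no longer passed on fulvestrant (adjusted p = 0.45).

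ACAT2, FADS1 and FADS2 fell in set 1 in the control lines as well as in the FGFR2 lines. ACAT2 was at 6.63, 7.02 and 7.68 with fulvestrant plus FGF2 and 5.91, 6.01 and 6.37 with FIIN-3 in the control lines (-0.92 ± 0.09, adjusted p = 1.3e-09, arms apart). Among the FGFR2 lines it went from 6.33, 6.63 and 7.37 to 3.91, 5.84 and 6.55 (-0.84 ± 0.09, adjusted p = 5.6e-11, arms overlapping), and in the FGFR1 line from 6.71, 6.87 and 7.26 to 5.71, 6.29 and 6.88 (-0.57 ± 0.17, adjusted p = 0.015, arms overlapping). FADS2 in the control lines was at 3.39, 3.80 and 4.42 and 2.32, 2.71 and 3.05 (-1.21 ± 0.14, adjusted p = 6.4e-08, arms apart), and FADS1 at 4.32, 5.04 and 5.37 and 3.84, 4.17 and 4.53 (-0.86 ± 0.12, adjusted p = 2.0e-06, arms overlapping). In the FGFR2 lines FADS1 went from 4.43, 4.87 and 5.31 to 3.35, 3.86 and 4.64 (-0.93 ± 0.08, adjusted p = 9.3e-15, arms overlapping) and FADS2 from 2.87, 3.59 and 4.36 to -1.86, 2.74 and 3.63 (-0.97 ± 0.15, adjusted p = 1.4e-07, arms overlapping). Without fulvestrant the falls were -0.68, -0.56 and -0.61 in the FGFR2 lines and -0.51, -0.64 and -0.82 in the control lines. On palbociclib in set 2 none of the 3 fell in the FGFR2 lines (0.04, -0.18 and -0.11), and ACAT2 rose in the FGFR1 line, from 4.87, 5.25 and 5.43 to 5.42, 5.67 and 6.59 (0.67 ± 0.20, adjusted p = 0.025, arms overlapping).

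INSIG1 fell in the control lines on fulvestrant with FIIN-3, from 3.15, 4.70 and 5.61 to 3.18, 3.93 and 4.36 (-0.82 ± 0.17, adjusted p = 4.5e-04, arms overlapping), and in the FGFR2 lines its difference was -0.02 ± 0.16. The FGFR1 arm with palbociclib, FGF2 and FIIN-3 held replicate 5, whose mean over the 34 genes was 5.53 against a group median of 6.06. Without it 10 genes rose and 2 fell in place of 6 and 1, and the 7 genes called with it were called again, TM7SF2 at 0.79, LSS at 0.98 and ACSL3 at -0.97. That library also had the highest TM7SF2 and the lowest LSS, SREBF2 and ACSL3 of its group. FADS2 overlaps FEN1, a DNA replication gene, by 49 bases on the same strand in GENCODE v29, and FEN1 fell beside it (-1.44 ± 0.10 in the control lines and -1.25 ± 0.10 in the FGFR2 lines on fulvestrant). ACAT2 overlaps SOD2 by 1106 bases and TCP1 by 397 bases, both on the opposite strand. SOD2 was at 0.05 ± 0.13 and -0.19 ± 0.10, and TCP1 at -0.26 ± 0.07 and -0.65 ± 0.06. In all, 16 of the 34 genes overlap an exon of another gene, 15 of them on the opposite strand, and a gene can have overlaps on both strands. Same-strand overlaps were found for CYP51A1, TM7SF2 (with VPS51), FADS1 (with a microRNA) and FADS2 (with FEN1). FADS1 and FADS2 also overlap each other on opposite strands, and whether their values share reads was not tested. Use of strand in the counting is not known here. The part of any of these neighbours in the values, those of ACAT2 included, was not tested.

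In the FGF3 line FIIN-3 lowered ACAT2 and EBP in both sets. Against DMSO in set 1 1 of 31 tested genes rose and 4 fell (4.39% and 6.03% of all genes). EBP was at 8.17, 8.21, 8.21, 8.35 and 8.69 in the 5 DMSO libraries and 7.05, 7.39 and 7.93 in the 6 with FIIN-3 (-0.95 ± 0.17, adjusted p = 7.2e-04, arms apart), ACAT2 at 6.14, 6.16, 6.22, 6.27 and 6.74 and 5.10, 5.69 and 6.06 (-0.71 ± 0.19, adjusted p = 0.022, arms apart), and TM7SF2 at 7.41, 8.39, 8.80, 8.81 and 8.83 and 9.32, 9.72 and 10.08 (1.14 ± 0.20, adjusted p = 4.9e-04, arms apart); none of these 3 pairs of arms overlapped. FADS2 fell from 3.72, 4.07, 4.24, 4.43 and 4.64 to 2.43, 3.55 and 3.73 (-0.96 ± 0.28, adjusted p = 0.033, arms overlapping). Only 1 DMSO library remains without the shallow libraries, and then 0 genes passed in edgeR, the lone library being assumed to vary like the others. The count went to 2 without FIIN-3 replicate 4 and to 3 without DMSO replicate 1, 2 or 4 or FIIN-3 replicate 3 or 5.

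On fulvestrant in the FGF3 line 1 of 32 genes rose and 6 fell with FIIN-3 (5.34% and 7.79%). ACAT2 was at 6.19, 6.22, 6.23 and 6.39 in 4 libraries with fulvestrant and 5.17, 5.34 and 5.46 with FIIN-3 (-0.92 ± 0.14, adjusted p = 7.3e-05, arms apart), SQLE at 5.87, 6.22, 6.23 and 6.53 and 4.998, 5.24 and 5.68 (-0.87 ± 0.17, adjusted p = 0.0011, arms apart), EBP at 7.94, 7.98, 8.26 and 8.32 and 6.90, 7.23 and 7.65 (-0.86 ± 0.14, adjusted p = 2.2e-04, arms apart), and TM7SF2 at 8.80, 8.87, 8.91 and 9.26 and 9.42, 9.54 and 9.82 (0.64 ± 0.12, adjusted p = 7.6e-04, arms apart), all without overlap. With the term for title numbers 11 genes passed in place of 7. Against the control arm of set 2 0 rose and 2 fell (2.49% and 4.23%). ACAT2 was at 6.08, 6.40 and 7.47 over 6 control libraries and 5.01, 5.41, 5.50, 5.56 and 5.67 in the 5 with FIIN-3 (-1.14 ± 0.26, adjusted p = 0.014, arms apart), and EBP at 7.28, 7.72 and 7.96 and 6.53, 6.57, 6.59, 6.71 and 6.76 (-1.07 ± 0.14, adjusted p = 2.3e-04, arms apart). Control replicate 3 of set 2 was shallow and had 1.99% MT-RNR2, and without it 4 genes rose and 8 fell.

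Palbociclib, added to fulvestrant plus FGF2, lowered 4 genes in every class of line: ACAT2, EBP, FADS1 and FADS2. In the control lines 1 gene rose and 8 fell (10.8% and 14.5% of all genes), in the FGFR1 line 1 and 4 (4.37% and 8.32%) and in the FGFR2 lines 5 and 8 (18.4% and 16.6%). The 8 that fell in the control lines were the same 8 that fell in the FGFR2 lines: ACAT2, MVK, FDPS, HSD17B7, EBP, INSIG1, FADS1 and FADS2. TM7SF2 rose in each class. These arms with fulvestrant plus FGF2 are the ones used above for trametinib and FIIN-3, so the results share those libraries.

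ACAT2 was at 6.63, 7.02 and 7.68 without and 5.42, 5.65 and 6.23 with palbociclib in the control lines, at 6.71, 6.87 and 7.26 and 5.08, 5.25, 5.37, 5.42 and 5.87 in the FGFR1 line (6 and 5 libraries), and at 6.33, 6.63 and 7.37 and 3.48, 5.27 and 6.29 in the FGFR2 lines. In no class, and in none of the 7 lines, did the arms overlap. The log2 fold changes were -1.34 ± 0.10 (adjusted p = 1.3e-12, arms apart), -1.55 ± 0.16 (adjusted p = 7.8e-07, arms apart) and -1.32 ± 0.11 (adjusted p = 2.1e-14, arms apart). EBP changed by -0.98 ± 0.12, -0.85 ± 0.14 and -0.63 ± 0.14. Its mean with palbociclib was 7.21 in K660N and 7.10 in N550K. Without the libraries under 5% MT-RNR2 these means were 6.94 and 6.91. FDPS, which makes farnesyl diphosphate, changed by -0.53 and -0.33 in the control and FGFR2 lines; it has 8 pseudogene copies in GENCODE v29 with which reads may be shared. INSIG1 was at 3.15, 4.70 and 5.61 and 3.40, 4.06 and 4.95 in the control lines (-0.64 ± 0.17, adjusted p = 0.0063, arms overlapping) and at 3.53, 4.20 and 5.28 and 3.14, 3.81 and 5.09 in the FGFR2 lines (-0.48 ± 0.16, adjusted p = 0.015, arms overlapping); with the term for title numbers its adjusted p was 0.12 in the control lines.

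FADS2 was at 3.39, 3.80 and 4.42 without and 1.77, 2.68 and 2.99 with palbociclib in the control lines (-1.28 ± 0.16, adjusted p = 7.6e-08, arms apart). In the FGFR1 line it went from 2.95, 3.34 and 3.84 to 1.503, 1.77, 1.97, 2.12 and 2.40 (-1.53 ± 0.25, adjusted p = 2.8e-04, arms apart) and in the FGFR2 lines from 2.87, 3.59 and 4.36 to 0.87, 2.47 and 3.51 (-1.24 ± 0.14, adjusted p = 2.2e-10, arms overlapping). FADS1 went from 4.32, 5.04 and 5.37 to 3.44, 3.96 and 4.49, from 4.56, 5.02 and 5.37 to 3.54, 3.65, 3.69, 4.20 and 4.26 and from 4.43, 4.87 and 5.31 to 2.51, 3.77 and 4.32 in the 3 classes (-1.10 ± 0.12, adjusted p = 1.9e-08, arms overlapping, -1.15 ± 0.19, adjusted p = 3.5e-04, arms apart and -1.12 ± 0.08, adjusted p = 6.7e-17, arms apart). The other 8 fatty acid genes tested passed in none of the 3 classes. FEN1, the neighbour of FADS2, fell by more (-2.26 ± 0.11, -2.05 ± 0.13 and -2.11 ± 0.07), while the neighbours of ACAT2 moved less: SOD2 was at -0.30 ± 0.12, -0.17 ± 0.15 and -0.19 ± 0.12, and TCP1 at -0.57 ± 0.08, -0.46 ± 0.11 and -0.35 ± 0.07. The part of these overlaps in the values was not tested.

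TM7SF2 was at 8.27, 8.63 and 9.27 and 8.89, 9.19 and 9.57 in the control lines (0.54 ± 0.11, adjusted p = 2.3e-04, arms overlapping), at 7.43, 7.97 and 8.17 and 8.35, 8.41, 8.69, 8.71 and 8.83 in the FGFR1 line (0.64 ± 0.13, adjusted p = 0.0033, arms apart), and at 7.22, 7.78 and 8.13 and 7.43, 8.38 and 8.88 in the FGFR2 lines (0.52 ± 0.08, adjusted p = 1.5e-07, arms overlapping). Of the 3 classes the arms were apart in the FGFR1 line. HMGCS1 rose in the FGFR2 lines from 3.30, 4.10 and 4.70 to 4.06, 4.50 and 5.30 (0.40 ± 0.09, adjusted p = 3.1e-04, arms overlapping), and DHCR7 from 6.78, 7.55 and 7.92 to 6.68, 7.78 and 8.31 (0.28 ± 0.09, adjusted p = 0.016, arms overlapping; adjusted p = 0.25 with the term for title numbers). In the FGF3 line palbociclib lowered ACAT2 and EBP in both sets. On fulvestrant in set 1 (1 gene higher and 2 lower of 32; 1.47% and 5.56% of all genes) ACAT2 was at 6.19, 6.22, 6.23 and 6.39 in 4 libraries without and 4.87, 5.27 and 5.74 with palbociclib (-0.98 ± 0.17, adjusted p = 1.5e-04, arms apart). EBP was at 7.94, 7.98, 8.26 and 8.32 and 7.24, 7.41 and 7.77 (-0.66 ± 0.14, adjusted p = 0.0019, arms apart; adjusted p = 0.052 without shallow libraries). Against the control arm of set 2 (1 higher and 2 lower; 1.73% and 4.8%) ACAT2 was at 6.08, 6.40 and 7.47 and 4.73, 5.34 and 5.83 (-1.25 ± 0.27, adjusted p = 0.0061, arms apart) and EBP at 7.28, 7.72 and 7.96 and 6.54, 6.90 and 7.10 (-0.84 ± 0.14, adjusted p = 8.3e-04, arms apart). ACSS2, which makes acetyl-CoA from acetate, rose there from 4.27, 4.87 and 5.48 to 5.28, 5.75 and 5.99 (0.75 ± 0.20, adjusted p = 0.034, arms overlapping). Without control replicate 3, 7 genes passed in place of 3. TM7SF2 rose on fulvestrant (0.43 ± 0.13, adjusted p = 0.044, arms overlapping), from 8.80, 8.87, 8.91 and 9.26 to 9.23, 9.35 and 9.59, and lost its call in 7 of the 10 fits that left out 1 library.

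**Figure D4:**
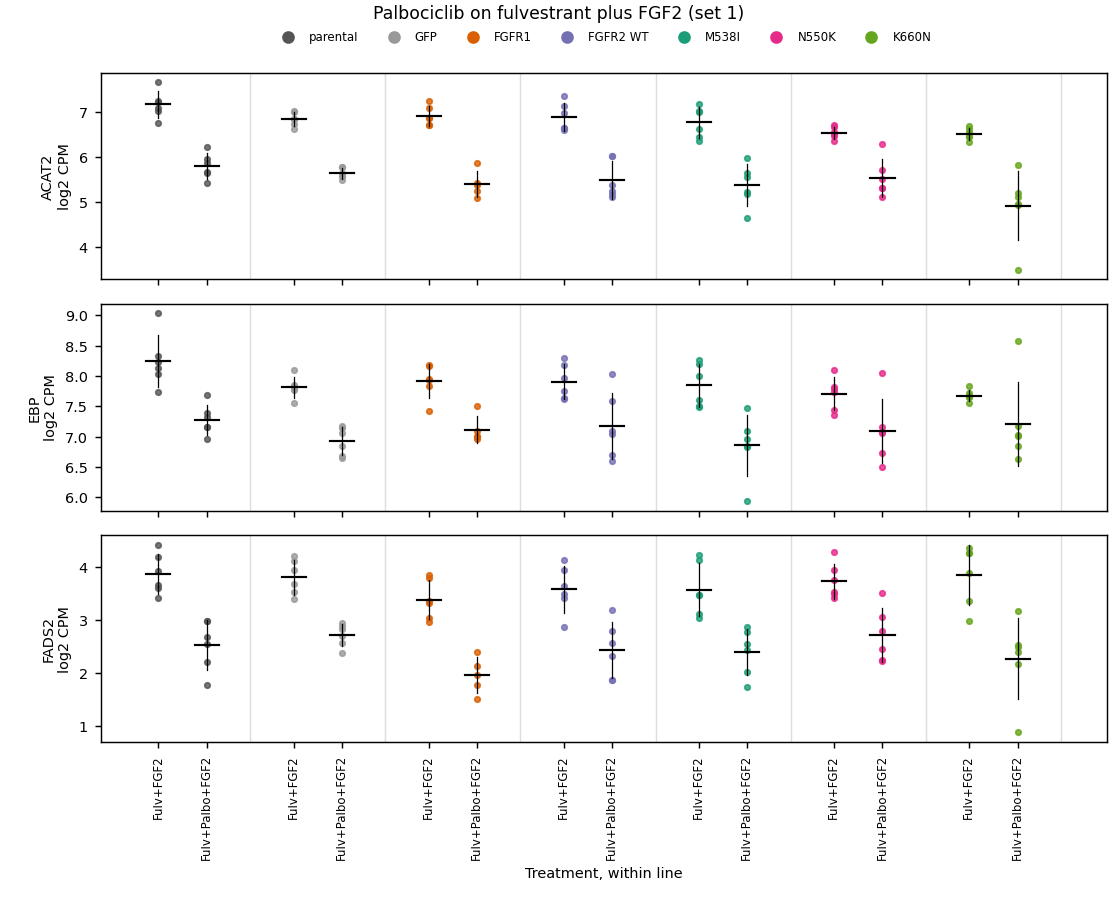
Log2 CPM (vertical axes) of ACAT2, EBP and FADS2 in each library of 7 lines (colours) with fulvestrant plus FGF2, without and with palbociclib (horizontal axis, set 1). Bars are means ± SD. ACAT2 with palbociclib lies below ACAT2 without it in every line with no overlap.

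With fulvestrant alone against DMSO no gene passed the threshold in edgeR, but in the FGFR2 lines this rested on leaving out a term for title numbers. The counts of genes higher and lower were 0 in the control lines (0.565% and 0.952% of all genes), the FGFR1 line (0% and 0.0791%), the FGFR2 lines (1.01% and 1.7%) and the FGF3 line (0% and 0%). At an unadjusted p under 0.05 there were 8, 1, 12 and 2 genes in that order, and DESeq2 called 0, 0, 1 and 0. With that term 11 genes were higher and 3 lower in the FGFR2 lines, and the count was still 0 in the other 3. The higher genes were MSMO1 (0.57 ± 0.19, adjusted p = 0.039), SREBF1 (0.49 ± 0.11, adjusted p = 0.0033), SC5D, FASN, ACSL3, INSIG1, ELOVL5, SREBF2, ACSS2, SCAP and ACLY, and the lower ones EBP (-0.49 ± 0.14, adjusted p = 0.015), ACAT2 and PMVK. Libraries of the same range deviated together there in 11 of 12 pairs (correlation above 0.1; lowest 0.025, median 0.43). Of the 23 DMSO libraries of those lines, 6 had MT-RNR2 under 5%, against 2 of their 24 fulvestrant libraries (1 in WT and 1 in N550K). Without such libraries, and without the term, 1 gene passed in the FGFR2 lines. No fit both left them out and used the term. Mean EBP without them went from 7.99 to 7.78 with fulvestrant in WT and from 7.85 to 7.87 in M538I. It went from 7.79 to 7.61 in N550K and from 7.81 to 7.53 in K660N. The group means of IDI1, MSMO1, SC5D, INSIG1, SREBF1, SREBF2, ACLY, ACSS2 and FASN were higher with fulvestrant in each of the 7 lines without FGF3, and those of ACAT2, FDPS, LSS and EBP lower. Without the libraries under 5% MT-RNR2, the means of SC5D and INSIG1 were higher and those of ACAT2, LSS and FADS1 lower in each of the 7; the other 9 genes then turned in 1 or more lines. Across the control lines INSIG1 was at 3.21, 3.89 and 4.94 with DMSO and 3.72, 4.57 and 5.32 with fulvestrant (0.57 ± 0.17), SREBF1 at 3.31, 3.99 and 4.48 and 3.52, 4.50 and 5.46 (0.63 ± 0.20), and FASN at 5.30, 7.24 and 8.18 and 5.89, 7.97 and 8.46 (0.42 ± 0.29). The arms overlapped for each of these 3 genes.

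At DMSO no difference between a receptor line and the GFP line passed the test. Against the GFP line, 0 of 33 genes passed in the FGFR1 line (0.00787% and 0% of all genes higher and lower), and 0 in the WT (0.00808% and 0%), M538I (0.0159% and 0%), N550K (0.954% and 0.644%) and K660N lines (0.923% and 0.591%) in edgeR. DESeq2 called 0, 0, 0, 1 and 0, and 1, 4, 5, 5 and 1 had an unadjusted p under 0.05. These contrasts share the 6 GFP libraries, 1 of which had little MT-RNR2, and 4 genes passed for N550K without such libraries. In the FGF3 line 1 gene was higher and 3 lower (3.24% and 3.94%). STARD4 was at 2.24, 3.53 and 3.61 in the GFP line and -1.86, 0.73, 1.35, 1.81 and 2.17 in the 5 FGF3 libraries (-2.04 ± 0.44, adjusted p = 0.012, arms apart), HMGCS1 at 4.30, 4.56 and 5.46 and 2.01, 2.83, 3.31, 3.63 and 3.94 (-1.51 ± 0.35, adjusted p = 0.018, arms apart), FADS1 at 4.06, 5.25 and 5.43 and 3.09, 3.43, 3.43, 3.80 and 4.15 (-1.43 ± 0.27, adjusted p = 0.0056, arms overlapping), and FADS2 at 2.86, 3.48 and 3.53 and 3.72, 4.07, 4.24, 4.43 and 4.64 (0.93 ± 0.23, adjusted p = 0.026, arms apart). Of the 5 FGF3 libraries 4 were shallow, and without them 0 genes passed, with 1 FGF3 library left. Without GFP replicate 6 the count was 11, and 2 without FGF3 replicate 2, 4 or 5.

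As a summary of level, the mean log2 CPM over the 34 genes was taken in each library and then over each line and treatment (± SD). It is a description and has no test. In set 1 the lowest and highest line means were 5.49 and 5.81 at DMSO, 5.54 and 5.88 with fulvestrant plus FGF2, 5.25 and 5.69 with FIIN-3 as well, and 5.71 and 6.04 with trametinib in its place. The trametinib mean was above that of fulvestrant plus FGF2 in 6 of 7 lines. Within the FGFR1 line it was 6.04 ± 0.03 against 5.63 ± 0.11, with 5.64 ± 0.11 for FIIN-3 and 5.59 ± 0.13 for palbociclib. The exception was K660N (5.71 ± 0.35 against 5.77 ± 0.13), whose trametinib arm held a library with little MT-RNR2; without it the mean was 5.85 ± 0.06. K660N also had the lowest mean with FIIN-3, 5.25 ± 0.43, and 5.42 ± 0.07 without such a library. In set 2 the trametinib means lay between 6.13 and 6.27 and the matching FIIN-3 means between 5.82 and 6.04, and trametinib was higher in all 7 lines by 0.20 to 0.31. In the FGF3 line the mean was 5.69 ± 0.02 with fulvestrant, 5.46 ± 0.08 with FIIN-3, 5.64 ± 0.19 with palbociclib and 5.92 ± 0.10 with trametinib as well in set 1. In set 2 it was 5.83 ± 0.37 in the control arm (5.98 ± 0.13 without replicate 3), 5.87 ± 0.08 with FIIN-3, 6.00 ± 0.05 with palbociclib, 5.78 ± 0.09 with both, 5.62 ± 0.21 with fulvestrant, palbociclib and FIIN-3, and 6.11 ± 0.06 with trametinib in place of FIIN-3.

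By role, the mean over the 11 genes from squalene to cholesterol was higher with trametinib in all 7 lines of set 1, by 0.16 (K660N) to 0.59 (FGFR1), or by 0.26 (parental) to 0.59 without the libraries under 5% MT-RNR2, when K660N was at 0.37. The mean over the 11 fatty acid genes was higher in 2 lines. With FIIN-3 on fulvestrant plus FGF2 the fatty acid mean was lower in all 7 lines, with differences from -0.88 (K660N) to -0.18 (-0.74 in K660N without those libraries), and the squalene to cholesterol mean higher in 4. With palbociclib both the mevalonate and the fatty acid means were lower in all 7 lines. FIIN-3 without FGF2 was given in set 1 to the N550K and FGF3 lines. In N550K the mean over the 34 genes was 5.43 ± 0.16 alone and 5.45 ± 0.06 with fulvestrant, against 5.58 ± 0.07 and 5.46 ± 0.08 with FGF2. In set 2 FIIN-3 alone was given to every line, with means from 5.84 in K660N to 6.11 in WT, and palbociclib alone with means from 5.92 in the parental line to 6.14 in WT.

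**Figure D5:**
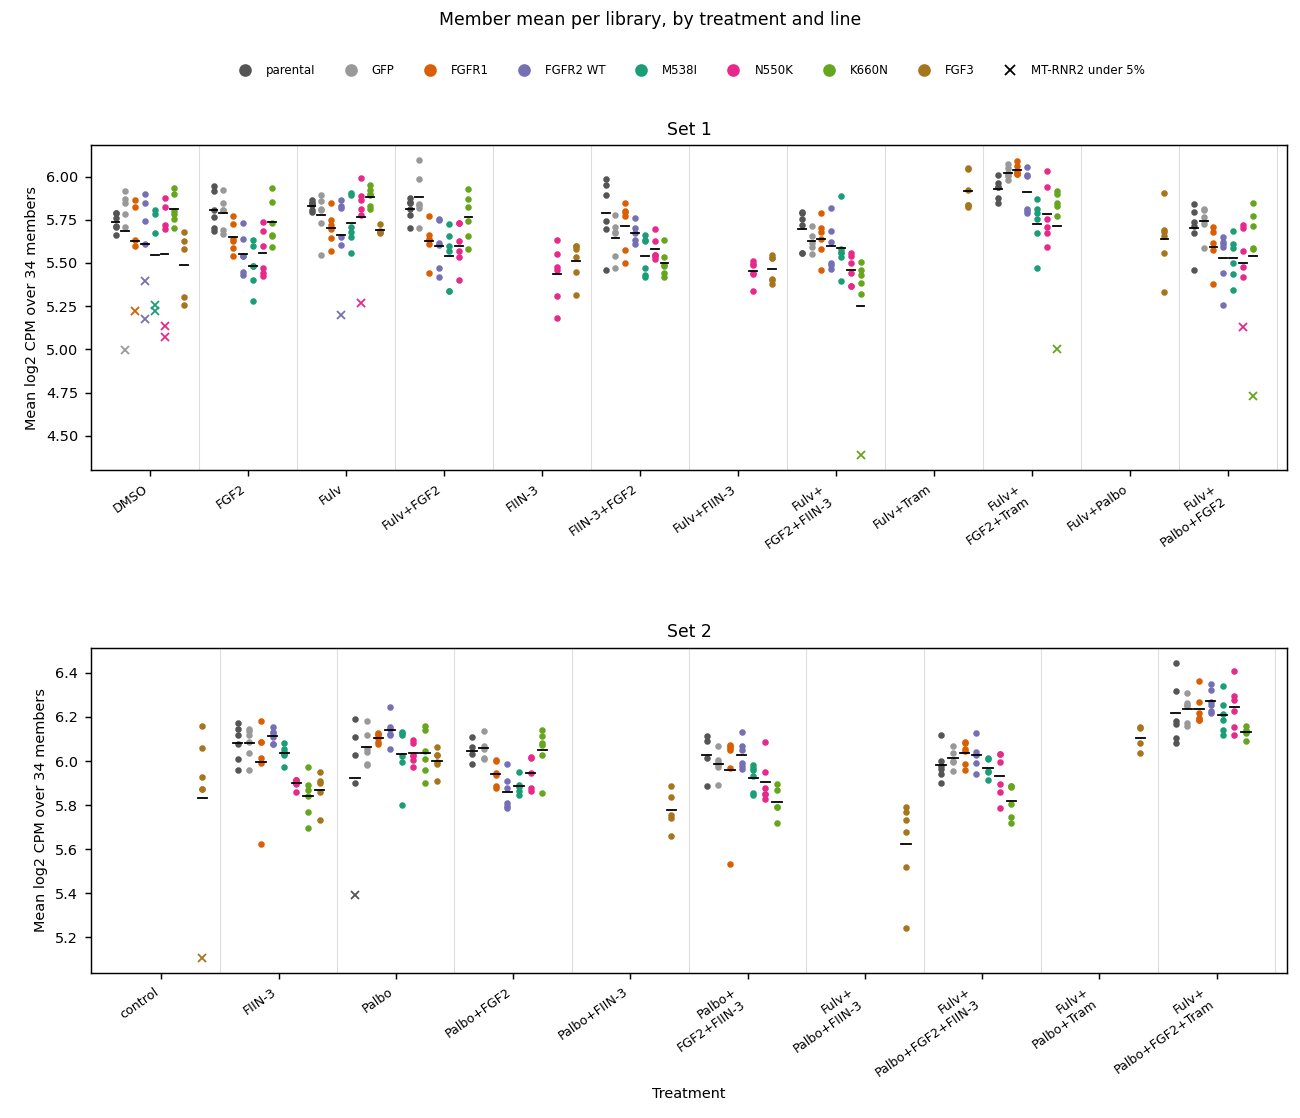
Mean log2 CPM over the 34 genes (vertical axis) in each library, by treatment (horizontal axis) and line (colour), for set 1 above and set 2 below. Short black lines are group means and crosses are libraries with MT-RNR2 under 5% of counts. The highest group mean of each set, 6.04 and 6.27, is that of a trametinib group, and the crosses of the K660N line lie below the other libraries of their groups.

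Neighbouring pathways were counted from lists chosen by function, with earlier results of these data known. Of 8 targets or partners of LXR, the nuclear receptor that senses oxysterols, 8 rose with FIIN-3 on FGF2 in the FGFR2 lines (29% of all genes rose), 7 on fulvestrant plus FGF2 (28.6%) and 4 on palbociclib plus FGF2 (27.3%); none fell in these 3. ABCA1, the cholesterol efflux pump, rose by 1.58 and 2.24 in the settings without palbociclib, SMPDL3A by 0.84 and 0.89, and APOE by 0.68 and 0.64. Against FIIN-3, trametinib libraries had 0 higher and 6 lower in the FGFR1 line (13.6% and 16.4% of all genes) and 0 higher and 6 lower in the FGFR2 lines (26.1% and 24.3%), with ABCA1 at -3.03 and -2.01 and ABCG1 at -1.39 and -1.25. In set 2 the counts were 0 higher and 5 lower (12.6% and 12.5%), and 0 higher and 4 lower (27.3% and 27.4%). Of 13 tested genes of fatty acid oxidation, the counts were 0 higher and 5 lower in the FGFR2 lines with trametinib against FIIN-3 (26.1% and 24.3% of all genes), among them ACADS (-1.23), a short-chain dehydrogenase, and PPARA (-1.22), a nuclear receptor that drives oxidation.

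Of 21 tested further genes of sterol synthesis and its control, the counts with trametinib on fulvestrant plus FGF2 were 3 higher and 0 lower in the FGFR1 line (5.48% and 5.83% of all genes) and 5 higher and 1 lower in the FGFR2 lines (14% and 14.1%). INSIG2, the relative of INSIG1, rose in both (1.14 and 0.53), and so did NPC2, a carrier of lysosomal cholesterol (0.40 and 0.59). With palbociclib TMEM97 (-1.43 and -1.34 in the control and FGFR2 lines) and LBR, a sterol reductase of the nuclear envelope that does the same step as TM7SF2 (-1.10 and -1.29), fell. LBR also fell with FIIN-3 in the FGFR2 lines (-1.07 and -0.91) and rose with FGF2 on fulvestrant (0.51) in set 1, where TM7SF2 moved the other way; in N550K alone mean LBR went from 4.61 to 4.54 with FGF2. On palbociclib in set 2 LBR did not pass in the FGFR2 lines with FGF2 (0.04 ± 0.11) or with FIIN-3 (-0.12 ± 0.11). Of the further fatty acid and glycerolipid genes, HSD17B12, which acts in chain elongation, rose with FGF2 in the FGFR2 lines (0.90 on fulvestrant and 0.87 on palbociclib) and fell with FIIN-3 (-1.49 and -1.62). ACACB, the mitochondrial relative of ACACA, fell with palbociclib (-1.24 and -0.999). The counts of this list were 1 higher and 6 lower of 19 with palbociclib in the control lines (10.8% and 14.5% of all genes) and 3 higher and 6 lower of 20 in the FGFR2 lines (18.4% and 16.6%).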

How the data were processed

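RNA of 647 libraries was aligned with STAR to hg19, per the submitters' processing notes; the counter, the annotation, the versions and the use of strand are not stated there or in the labels. The authors deposited whole-number read counts per gene symbol, unnormalized, and a second table whose values are log2(TPM + 1), as its own sums show. From the latter, 133 columns were used and 514 were not. No library was a copy of another. Counts were tested with edgeR 4.0.16 (R 4.3.3), quasi-likelihood, with TMM scaling, filterByExpr at a minimum count of 10, and Benjamini-Hochberg adjustment over all genes. Each of 46 comparisons was fitted on its own libraries, with line as an additive term where lines were pooled. Alternatives were DESeq2 1.42.0 (test and size factors), limma 3.58.1 on the second table, no filter, other controls, single libraries left out, libraries with MT-RNR2 under 5% or shallow libraries left out, and a term for ranges of 96 title numbers. The fit was run on simulated counts only for trametinib on fulvestrant plus FGF2 in the FGFR1 and in the FGFR2 lines. Those counts were drawn from the fitted model, with no effect of title range or of low MT-RNR2. The 34 genes, the other lists and the tests were chosen with earlier results of these data known. Per-library values were named for a fixed panel (HMGCS1, IDI1, SQLE, INSIG1, SREBF1, SREBF2, FASN and SCD) and for up to 3 genes per direction and comparison with the largest fold change; others named were chosen after their values were seen. Title numbers were checked for pairing: over 193 pairs the correlation of deviations ran from -0.27 to 0.73 (median 0.10), with 97 above 0.1, so they were not taken to pair libraries in general. In many comparisons of set 1 the arms shared only some of the ranges. GFP libraries with fulvestrant plus FGF2, for example, lay in ranges 1, 2 and 4. Those with trametinib as well lay in ranges 2, 3 and 4. Treatment and range were therefore partly mixed there in fits without the term. In 2 of 31 comparisons with 3 or more pairs (FGF2 in the control lines, fulvestrant in the FGFR1 line) every pair was above 0.1, and there the term for title ranges changed no call. Comparisons of the FGFR1 line with only 2 pairs had both above 0.1 for FGF2 (0.20 and 0.28) and FGF2 on fulvestrant (0.27 and 0.28). The same held there for FIIN-3 on FGF2, with and without fulvestrant. For fulvestrant in the FGFR2 lines 11 of 12 pairs were above 0.1. The term did move the counts for FGF2 and FGF2 on fulvestrant in the FGFR1 line and for fulvestrant in the FGFR2 lines, as given above.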

Additional observations from a re-analysis of the deposited data

Results flagged for a closer look

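In 11 groups of 4 to 10 libraries (9.82% of those tested), 1 library's mean over the 34 genes lay far from the others by Dixon's test, which flags about 1 group in 20 by chance. Of these libraries 6 had MT-RNR2 under 5%: FGF3 control replicate 3 of set 2 (5.11 log2 CPM), K660N with fulvestrant, FGF2 and FIIN-3 replicate 1 (4.39), with trametinib replicate 3 (5.004) and with palbociclib replicate 4 (4.73), N550K with fulvestrant replicate 3 (5.27) and GFP DMSO replicate 6 (4.995). All 6 were lower than their group's median. The part of low MT-RNR2 in these values was not tested. The other 5 were FGFR1 with FIIN-3 replicate 5 of set 2 (5.62), FGFR1 with palbociclib, FGF2 and FIIN-3 replicate 5 (5.53), M538I with fulvestrant, FGF2 and FIIN-3 replicate 6 (5.89), N550K with FIIN-3 replicate 6 of set 2 (5.86) and GFP with fulvestrant, palbociclib and FGF2 replicate 3 (5.59). Among values of single genes in groups, 11 (9.65% of those tested) stood apart by the same test. GFP DMSO replicate 6 was low in FADS2 (2.86), STARD4 (2.24) and FADS1 (4.06). FGFR1 with palbociclib, FGF2 and FIIN-3 replicate 5 was high in TM7SF2 (9.65) and low in LSS (6.31), SREBF2 (4.80) and ACSL3 (4.59). ACAT2 was high in FGF3 DMSO replicate 3 (6.74) and in FGF3 control replicate 3 of set 2 (7.47). With fulvestrant, palbociclib, FGF2 and FIIN-3 in the FGFR1 line, SCD was low in replicate 6 (7.75) and SREBF1 in replicate 2 (4.91). The response of INSIG1 to FGF2 differed between the FGFR2 and the control lines by -0.92 (edgeR, adjusted p = 0.049); it did not pass in limma on the second table (adjusted p = 0.21).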

How the results depend on the processing

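Counts are numbers of the 34 genes past the threshold. With DESeq2's size factors all 46 counts stayed within 1.5 times. DESeq2's test gave 1 for N550K against GFP and 2 for the FGF2 response of FGFR1 against control lines (0 in edgeR for both), 1 in place of 0 for fulvestrant in the FGFR2 lines, 3 in place of 1 for FGF2 on palbociclib in control lines, and 5 and 6 in place of 2 and 3 for FIIN-3 and palbociclib in the FGF3 line of set 2. GFP and parental cells together as controls gave 1, 2 and 2 for M538I, N550K and K660N in place of 0. Limma on the second table, run for the DMSO, FGF2 and fulvestrant comparisons, gave 0 in place of 4 (FGF3 at DMSO), 1 in place of 2 (FGF2, control lines) and 0 in place of 1 (FGF2 response, FGFR2 against control lines). Without the filter the counts were 1 and 3 in place of 0 (FGF2 response of FGFR1; fulvestrant, control lines), 5 in place of 8 (FGF2 on fulvestrant, control lines) and 2 in place of 1. With the replicate block, a term for ranges of title numbers, the counts were 1, 1 and 1 for M538I, N550K and K660N, 18 for FGF2 in the FGFR1 line (from 10), 9 and 4 for the FGF2 responses of FGFR1 and FGFR2 (from 0 and 1), 14 for fulvestrant in the FGFR2 lines (from 0), 10 and 9 for FGF2 on fulvestrant (from 6 and 14), and 11 and 9 for FIIN-3 and trametinib in the FGF3 line (from 7 and 5). The other 35 counts stayed within 1.5 times with it. Without libraries under 5% MT-RNR2 the counts were 1, 4 and 1 for M538I, N550K and K660N, 11 for FGF3, 4 for the FGF2 response of FGFR1, 1 for fulvestrant in the FGFR2 lines, 6 for FGF2 on palbociclib, and 12 and 7 for the FGF3 line of set 2. Without shallow libraries they were 0, 0 and 1 for FGF3 at DMSO, with FIIN-3 and with trametinib, and 12 and 7 in set 2; these fits have fewer libraries. Leaving out libraries with an outlying mean, an alternative chosen after seeing the data, gave 12 in place of 7 for FIIN-3 on palbociclib in the FGFR1 line. Single libraries left out gave 0 to 1 (FGF2 response of FGFR1), 5 to 14 (FGF2, FGFR1), 2 to 11 (FGF3 at DMSO), 2 to 6, 6 to 8, 1 to 5 and 2 to 3 (FGF3 with FIIN-3, and on fulvestrant with FIIN-3, trametinib and palbociclib), 5 to 7 (palbociclib, FGFR1) and 2 to 12 (FIIN-3, FGF3, set 2). Signs turned for FGF2 against DMSO in the FGFR2 lines: in limma ACAT2 was at 0.041, LSS at 0.062, NSDHL at 0.041, PMVK at 0.031 and SCD at 0.13, with the block ACAT2 at 0.11, ACLY at -0.15 and EBP at 0.019, and without libraries under 5% MT-RNR2 ACAT2 at 0.0041. With the block FDPS turned to 0.054 for FGF2 on fulvestrant in the FGFR2 lines and FASN to 0.10 for FIIN-3 on FGF2 there. The cause was not tested. CYP51A1, STARD4 and ME1 had too few reads to test in 4, 3 and all 46 comparisons. The part of depth, or of genes that overlap CYP51A1 and STARD4, in this was not tested.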
